A study of Homo sapiens with 372 samples.

Results

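The immediate early genes FOS, JUNB, JUND, EGR1, IER2, IER3 and DUSP1 were described in single A2780 cells, an established human ovarian endometrioid adenocarcinoma line, before and after treatment with paclitaxel, celecoxib or both. The set was a list of 10 symbols (FOS, JUN, JUNB, JUND, EGR1, IER2, IER3, ATF3, FOSL1 and DUSP1), put together with results from these cells already known, so its behaviour is given here as a description and without tests. Of the 10 symbols, 7 were among the 9664 genes with values, and JUN, ATF3 and FOSL1 were not analysed here. The study asked how transcription differs from cell to cell after a microtubule drug (paclitaxel) and an anti-inflammatory cyclo-oxygenase inhibitor (celecoxib), alone and together.

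Values were at hand for 338 of the 372 captured cells, each sequenced at full transcript length with the Smart-seq2 chemistry on a microfluidic capture system. There were 46 control cells, for which the labels name no drug, 56 cells after 16 h and 53 cells after 48 h in 5 nM paclitaxel, 63 cells after 2 h and 61 cells after 16 h in 75 µM celecoxib, and 59 cells after 16 h in both drugs at those doses. Cells of every condition grew in serum, were trypsinised and resuspended, and were then captured. The labels and methods name no separate cultures or capture runs within a condition, so each condition was taken as 1 sample. All SD values below are therefore spreads over cells of a condition, no difference between conditions was tested, and effects of a drug, a time, a culture or a capture run cannot be told apart.

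Immediate early genes are transcribed within minutes of a growth factor, stress or drug signal and need no new protein for it. Kinases of the ERK, JNK and p38 cascades switch them on through serum response factor at CArG boxes and through CREB and ATF proteins at cyclic AMP response elements (CRE). FOS and JUN family proteins pair through leucine zippers into the AP-1 factor, EGR1 is a zinc finger activator, and DUSP1 is a phosphatase that takes the phosphate off the same kinases and so closes a feedback loop. In cultured tumour cells these transcripts come and go in bursts, and JUND is the JUN family member that is usually present without a stimulus.

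All 7 genes are short, with 1 to 4 exons in the canonical transcript. On hg38, in GENCODE release 44, FOS lies at chr14:75278826-75282230 on the plus strand with 4 exons, and EGR1 at chr5:138465479-138469303 on the plus strand with 2 exons. DUSP1 lies at chr5:172768096-172771195 on the minus strand with 4 exons. JUND, at chr19:18279694-18281622 on the minus strand, has a single exon, as has JUNB at chr19:12791486-12793315 on the plus strand. IER2 lies at chr19:13150411-13154911 on the plus strand and IER3 at chr6:30743199-30744548 on the minus strand, each with 2 exons. FOS, EGR1 and JUND overlap no other annotated gene. JUNB lies opposite HOOK2, IER3 opposite the non-coding genes IER3-AS1 and HCG20, DUSP1 opposite 1 unnamed non-coding gene and IER2 opposite 2 of them. The chemistry does not mark strand, so reads of these overlaps cannot be assigned to either gene with certainty.

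The promoter sequences of FOS and EGR1 are shown because these were the most strongly coupled pair across cells, that of JUND because its coupling to EGR1 changed sign between conditions, and that of DUSP1 as the feedback member. Each run is the 250 bases upstream of the RefSeq start on GRCh38.p14, read 5′ to 3′ on the gene's strand, with matches in capitals to the CRE core (TGACGT, or ACGTCA on the other strand), the CArG box, the AP-1 site (TGANTCA) and the TATA box (TATAAA). Such a sequence was at hand here for 6 of the 7 genes, all but IER3.
FOS: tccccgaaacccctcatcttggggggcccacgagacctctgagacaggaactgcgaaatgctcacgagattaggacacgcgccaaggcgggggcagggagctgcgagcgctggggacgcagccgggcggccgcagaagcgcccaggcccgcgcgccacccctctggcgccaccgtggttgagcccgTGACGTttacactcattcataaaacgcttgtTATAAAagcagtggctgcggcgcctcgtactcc
EGR1: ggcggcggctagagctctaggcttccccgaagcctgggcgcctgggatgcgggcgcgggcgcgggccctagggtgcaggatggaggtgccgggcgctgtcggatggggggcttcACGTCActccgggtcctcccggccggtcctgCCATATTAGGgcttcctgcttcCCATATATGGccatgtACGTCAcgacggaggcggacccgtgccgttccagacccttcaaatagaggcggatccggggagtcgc
JUND: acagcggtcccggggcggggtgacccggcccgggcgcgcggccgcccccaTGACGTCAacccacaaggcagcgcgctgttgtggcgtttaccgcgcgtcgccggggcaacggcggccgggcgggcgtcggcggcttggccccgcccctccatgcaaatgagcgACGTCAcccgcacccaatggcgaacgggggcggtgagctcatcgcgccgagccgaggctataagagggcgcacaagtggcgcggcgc
DUSP1: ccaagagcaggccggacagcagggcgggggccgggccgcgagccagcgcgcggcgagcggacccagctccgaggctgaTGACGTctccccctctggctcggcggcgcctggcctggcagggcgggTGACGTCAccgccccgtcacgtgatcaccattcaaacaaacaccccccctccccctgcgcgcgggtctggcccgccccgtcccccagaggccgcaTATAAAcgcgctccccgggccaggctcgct

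The FOS run, chr14:75278578-75278827, held a CRE core 64 to 59 bases before the start and a TATA box 33 to 28 bases before it. The EGR1 run, chr5:138465229-138465478, held 2 CArG boxes, at 105 to 96 and 83 to 74 bases before the start, with a CRE core on either side at 136 to 131 and 67 to 62. The JUND run, chr19:18281623-18281872, and the DUSP1 run, chr5:172771196-172771445, each held the 8-base palindrome in which the CRE core reads on both strands, and a further core. These 4 genes thus shared a CRE core, which the windows of JUNB and IER2 lacked and which 7.1% of 35116 promoter windows of the same length held. A CArG box stood in 1.16% of all windows and an AP-1 site in 6.57%, and no member window held the AP-1 letters. A match is a description of the letters and not a measured binding site.

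Expression is given as the E-value, log2(N/10 + 1), in which N is the length-scaled TPM of a gene divided by the most abundant of 3 spike-in RNAs added to each well. N is per length, so levels can be compared between genes, and E is compressed near 0. An E of 0 means that no transcript was assigned in that cell, and 34.9% of all values were 0. FOS was the most abundant member in control cells, with a mean N of 797 that placed it at rank 392 of 9664, while IER3 stood at rank 7003.

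FOS transcripts were present in most cells of every condition except after 16 h in paclitaxel. FOS was above 0 in 37 of 46 control cells, or 80.4% (exact binomial 95% interval 66.1 to 90.6%, which, like all intervals here, covers counting error only). After 16 h in paclitaxel it was above 0 in 24 of 56 cells, or 42.9% (29.7 to 56.8%), an interval that did not meet the control one. After 48 h in paclitaxel the share was 83% (70.2 to 91.9%), at 2 h in celecoxib 81% (69.1 to 89.8%), at 16 h in celecoxib 96.7% (88.7 to 99.6%) and in both drugs 71.2% (57.9 to 82.2%).

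The levels of FOS ran widely from cell to cell. In control cells the E-value ran from 0 through a median of 5.11 to 8.75, with a mean of 4.46 and an SD of 2.92, the seventh widest SD among the 9664 genes. After 16 h in paclitaxel it ran from 0 through a median of 0 to 5.05 (mean 1.31, SD 1.76), so that all 56 cells lay below the control median although the ranges overlapped. The medians and highest values were 4.16 and 6.63 at 48 h in paclitaxel, 3.80 and 6.25 at 2 h in celecoxib, 4.16 and 6.66 at 16 h in celecoxib, and 3.69 and 7.28 in both drugs.

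By mean E, FOS stood highest in control cells, then at 48 h in paclitaxel (3.88, SD 2.24) and 16 h in celecoxib (3.88, SD 1.83), then at 2 h in celecoxib (3.38, SD 2.05), in both drugs (3.12, SD 2.63) and at 16 h in paclitaxel. Neighbours among the 5 upper conditions in that order differed by less than the SD of either. The last step, 1.81 between both drugs and paclitaxel at 16 h, was wider than the SD of the paclitaxel cells and narrower than that of the cells in both drugs.

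**Figure D1:**
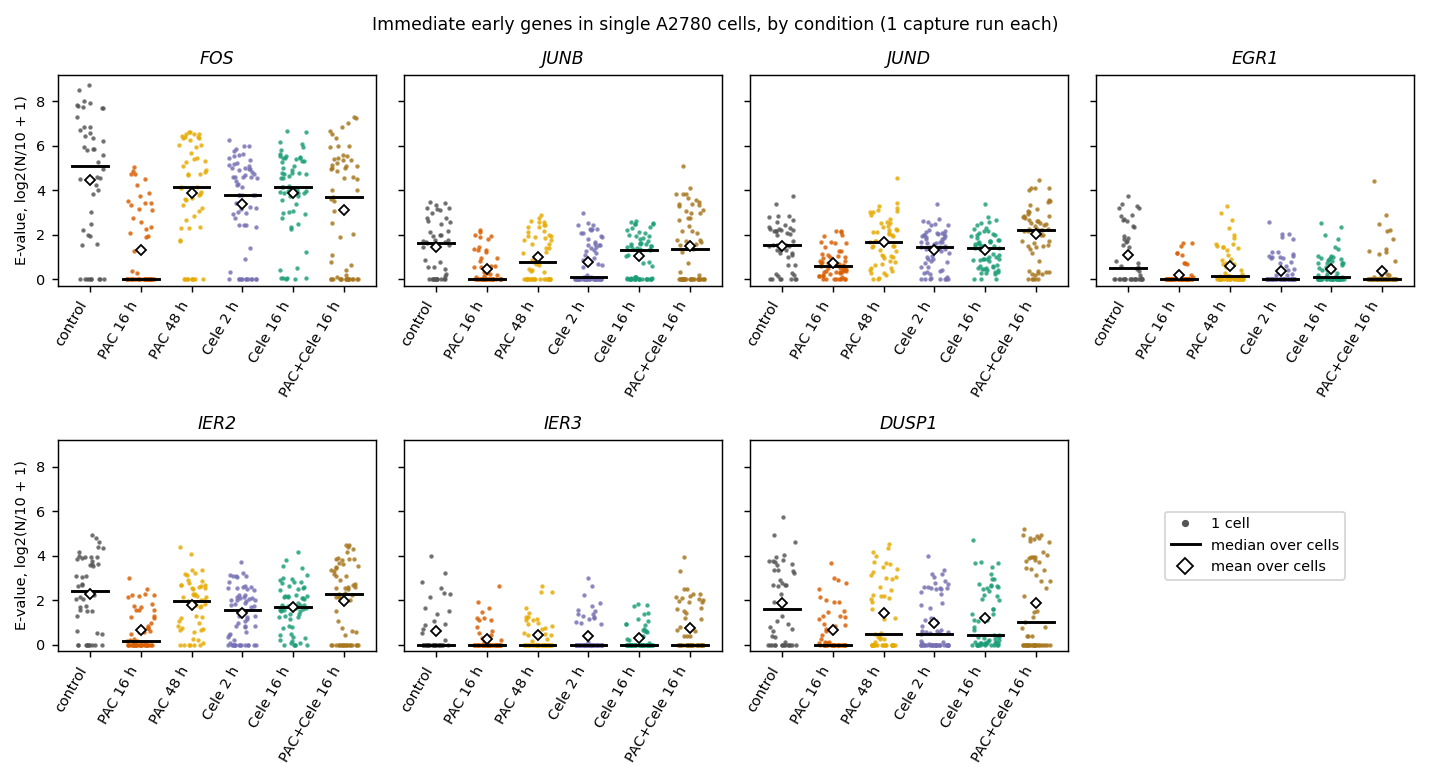
E-values (log2 scale, vertical axes) of the 7 genes in each of 338 cells, by condition (PAC, paclitaxel; Cele, celecoxib), with the median as a bar and the mean as a diamond. FOS reaches 8.75 in control cells and 5.05 after 16 h in paclitaxel, where its median is 0. The ranges of all conditions overlap for each gene, as each range starts at 0.

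JUNB, an AP-1 subunit that can also hold back JUN, was above 0 in 73.9% of control cells (58.9 to 85.7%) and in 44.6% after 16 h in paclitaxel (31.3 to 58.5%). Its E-value ran from 0 through 1.64 to 3.46 in control cells and from 0 through 0 to 2.21 after 16 h in paclitaxel. The other shares were 62.3% at 48 h in paclitaxel, 52.4% at 2 h in celecoxib, 72.1% at 16 h in celecoxib and 57.6% in both drugs. JUNB spread most over the cells in both drugs, where E reached 5.08 with an SD of 1.55.

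JUND differed from the other members in being present nearly throughout. It was above 0 in 84.8% of control cells (71.1 to 93.7%) and in 85.7% after 16 h in paclitaxel (73.8 to 93.6%), and in between 88.9 and 96.2% of the cells of the other conditions. Its level was lower at 16 h in paclitaxel even so, with a median E of 0.61 and a highest value of 2.19 against 1.53 and 3.75 in control cells. In both drugs the median was 2.21 and the highest value 4.47.

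EGR1 was above 0 in 58.7% of control cells (43.2 to 73%), in 21.4% after 16 h in paclitaxel (11.6 to 34.4%) and in 25.4% in both drugs (15 to 38.4%), and both of those intervals lay below the control one. At 2 h in celecoxib the share was 36.5% (24.7 to 49.6%), and at 48 h in paclitaxel and 16 h in celecoxib it was 56.6% and 60.7%. Many of those values were low. EGR1 was above an E of 1 in 41.3% of control cells, 26.4% at 48 h in paclitaxel and 14.8% at 16 h in celecoxib. The same share was 10.7% at 16 h in paclitaxel, 15.9% at 2 h in celecoxib and 16.9% in both drugs. The E-value of EGR1 ran from 0 through 0.50 to 3.75 in control cells and from 0 through 0 to 1.64 after 16 h in paclitaxel. A single cell in both drugs reached 4.41, so the highest EGR1 value of any cell came from a condition where 44 of 59 cells were at 0.

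IER2, a nuclear protein of the immediate early response, was above 0 in 78.3% of control cells (63.6 to 89.1%) and in 55.4% after 16 h in paclitaxel (41.5 to 68.7%), and in 69.5 to 91.8% of the cells of the other conditions. Its median E was 2.42 in control cells and 0.16 after 16 h in paclitaxel, with highest values of 4.91 and 2.97. IER3, a small protein linked to survival signalling, was the least often seen, in 34.8% of control cells (21.4 to 50.2%) and in 26.8 to 44.1% elsewhere, with a median of 0 in every condition. A gene entered the deposited table only when seen in over 30% of the cells of some condition, and IER3 met that in 4 of the 6. DUSP1 was above 0 in 69.6% of control cells (54.2 to 82.3%), in 48.2% after 16 h in paclitaxel (34.7 to 62%) and in 82% after 16 h in celecoxib (70 to 90.6%). It was above an E of 1 in 54.3%, 26.8% and 44.3% of those cells. The highest DUSP1 values were 5.73 in control cells and 3.65 after 16 h in paclitaxel.

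**Figure D2:**
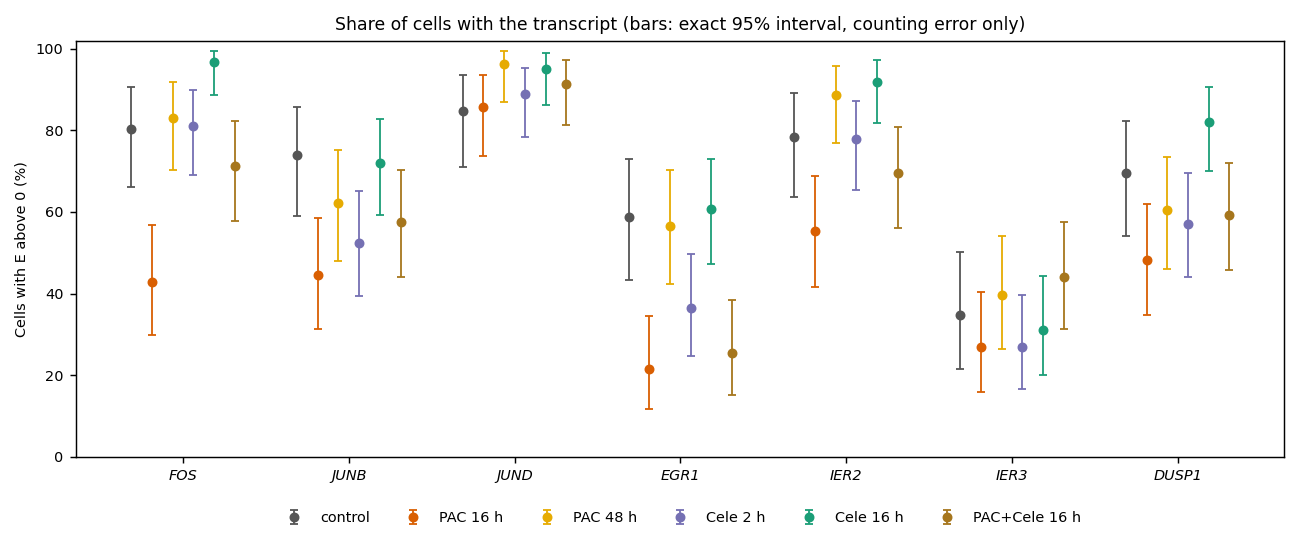
Share of cells with E above 0 (vertical axis, percent) for each gene and condition, with exact 95% binomial intervals as bars. For FOS, 42.9% of the cells at 16 h in paclitaxel lies below 71.2% or more in every other condition, while JUND stays between 84.8 and 96.2%.

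The members were counted together in each cell. A control cell held 4.80 of the 7 transcripts on average (SD 1.77 over cells), and a cell after 16 h in paclitaxel held 3.25 (SD 1.34). The means were 4.87 at 48 h in paclitaxel, 4.21 at 2 h in celecoxib, 5.30 at 16 h in celecoxib and 4.19 in both drugs. All 7 were seen together in 6 of 46 control cells, in 0 of 56 cells after 16 h in paclitaxel and in 1 of 59 cells in both drugs. At least 5 were seen in 65.2% of control cells, 17.9% at 16 h in paclitaxel and 78.7% at 16 h in celecoxib.

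The chance of seeing a transcript moves with the depth of a cell and its RNA content. Read depth per cell is unknown from these values, and the number of genes above 0 stands in for it. The median of that number was 6630 in control cells (range 4746 to 7854) and between 6125.5 and 6351 in the other conditions. The median summed N per cell, against control cells, was 1.98-fold lower at 16 h in paclitaxel, 1.56-fold lower at 48 h, 1.69-fold lower at 2 h in celecoxib, 2.87-fold lower at 16 h in celecoxib and 1.40-fold higher in both drugs. FOS was thus seen in the most cells, 96.7%, in the condition with the lowest total, and in the fewest, 42.9%, in a condition with a higher one. Above an E of 1 these shares were 86.9% and 39.3%, with 80.4% in control cells and 83% at 48 h in paclitaxel. The part of depth and RNA content in the shares was not tested, since thinning cells to a common depth needs counts.

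Because these totals move every gene, each difference from control cells is given on the deposited scale and again with the summed N of all cells set equal (the same total). Differences past 1.5-fold in mean E, the size the study used, were counted without a test. The 5 treatments share the same control cells, so their values stand side by side and are not independent.

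At 16 h in paclitaxel 6 of the 7 members were past 1.5-fold lower than in control cells and 0 higher, on a scale where 37.3% of all 9664 genes were lower and 0.0931% higher. With totals set equal 5 members were lower and 0 higher, as were 13.2% and 1.88% of all genes. FOS had the lowest difference of the 9664 genes on both scales, at −3.15 as deposited and −2.83 at the same total. On the linear scale its mean N was 797 in control cells and 46.7 at 16 h. IER2 differed by −1.63 and −1.39, the latter ranking 41 from the lowest, and DUSP1 by −1.21 and −0.94. JUNB differed by −1.02 and −0.79, EGR1 by −0.92 and −0.81, and JUND by −0.77 and −0.45, the last within 1.5-fold at the same total. IER3 was within 1.5-fold on both scales, at −0.34 and −0.23. Its mean E in control cells was 0.61, only just above log2 of 1.5, so it could hardly be called lower. Its mean N was 11.9 in control cells and 3.44 at 16 h in paclitaxel. From the ratio of linear means IER3 differed by −0.71, past the limit. The median of the members was −1.02 against −0.41 for all genes, and at the same total −0.81 against −0.09. The choice of members rested on these cells, so neither median supports the other.

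At 48 h in paclitaxel 0 members were past 1.5-fold in either direction on the deposited scale, where 26.6% of all genes were lower and 0.921% higher. FOS stood just inside that limit at −0.58. On the linear scale its mean N was 321, against 797 in control cells. With totals set equal FOS stood at −0.03. JUND, at 0.59, was then the 1 member past the limit, as higher, where 4.69% of all genes were higher and 8.07% lower. Between the paclitaxel times, FOS was 2.57 higher at 48 h than at 16 h as deposited and 2.81 higher at the same total, the highest difference of all 9664 genes at the same total. IER2 and JUND followed at 1.29 and 1.04 at the same total, ranks 31 and 100, and IER3, at 0.18, ranked 3634.

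At 2 h in celecoxib 5 members were past 1.5-fold lower on the deposited scale (25.7% of all genes, with 1.12% higher) and 3 at the same total (10.8% of all genes, with 4.18% higher), namely FOS, EGR1 and DUSP1. Their differences at the same total were −0.64 for FOS, −0.63 for EGR1 and −0.67 for DUSP1, and JUNB and IER2 stood just inside the limit at −0.52 and −0.54. JUND differed by 0.19.

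At 16 h in celecoxib the reading turned on the scale. On the deposited scale EGR1 (−0.65), IER2 (−0.61) and DUSP1 (−0.68) were past 1.5-fold lower, where 43.9% of all genes were lower and 0.383% higher, and FOS stood just inside at −0.58. The mean N of FOS was 244, against 797 in control cells. With totals set equal 0 members were lower (10.1% of all genes), FOS (0.64) and JUND (0.71) were past the limit higher (8.87% of all genes), IER2 was at 0.37 and DUSP1 at 0.00. The 2.87-fold lower total lay between those readings. The deposited scale is set by a spike-in added in equal volume to each well, and so keeps differences in RNA content per cell. Setting totals equal removes them and gives a gene's share of the total. How closely the spike-in tracked molecules per cell was not tested.

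In both drugs FOS was the lowest member, at −1.34 as deposited and −1.78 at the same total, the 15th and 13th lowest of 9664 genes. EGR1 differed by −0.73 and −0.78. These 2 members were past 1.5-fold lower on the deposited scale, where 1.76% of all genes were lower and 30.4% higher, and at the same total IER2 (−0.71) joined them (7.64% of all genes, with 7.86% higher). JUNB, JUND, IER3 and DUSP1 lay between −0.27 and 0.08 at the same total. In this condition 1 well was noted as empty or holding debris and was kept in the deposited table. Without it the FOS difference was −1.28.

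At 16 h the drugs could also be set side by side. FOS in both drugs differed from celecoxib alone by −0.76 as deposited and by −2.42 at the same total, the latter the lowest difference of all 9664 genes. From paclitaxel alone it differed by 1.81 as deposited and by 1.05 at the same total, the latter at rank 208 from the highest. The running numbers of the libraries in the labels were divided here into 4 blocks of 96, and whether such a block was a plate or a sequencing pool is not given in the sources used here. Control cells fell in block 4, which they shared only with cells at 48 h in paclitaxel. The 16 h paclitaxel cells fell in block 1, celecoxib cells in block 2 (2 h) or 3 (16 h), and cells in both drugs in blocks 1 and 3. Against control cells, block and treatment cannot be told apart for any of these. In block 1, mean FOS was 3.31 in 34 cells in both drugs against 1.31 in paclitaxel alone. In block 3 it was 2.86 in 25 cells in both drugs against 3.88 in celecoxib alone. Within block 4, the 31 cells at 48 h in paclitaxel differed from control cells by −0.50 for FOS, and by −0.06 at the same total.

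**Figure D3:**
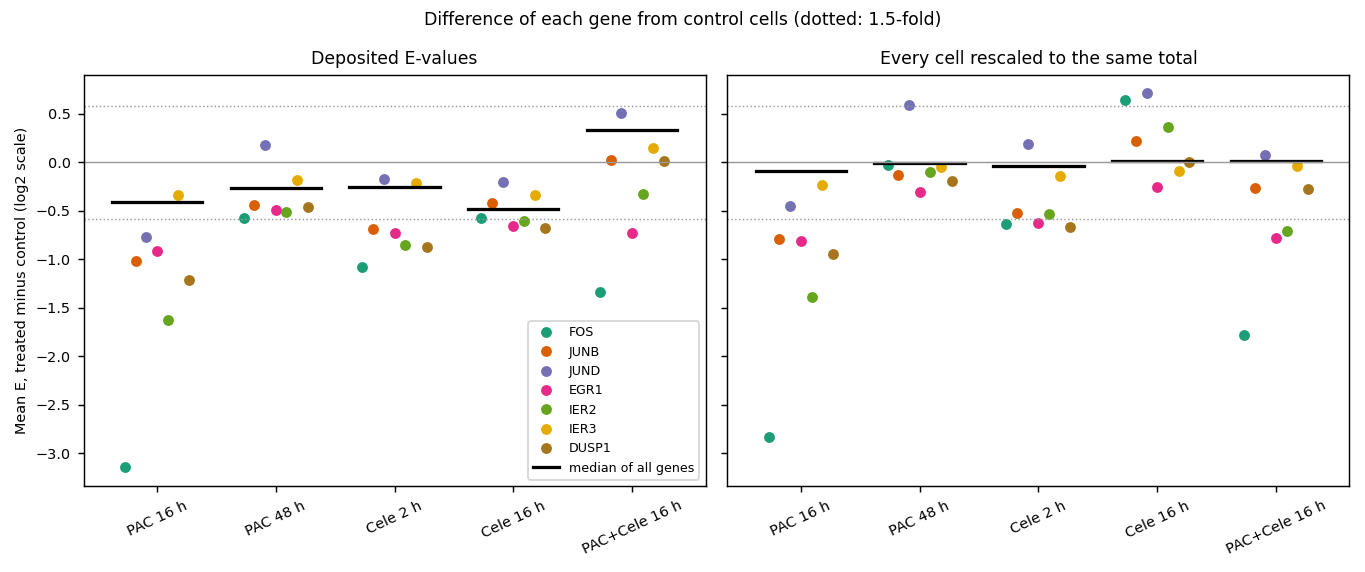
Difference in mean E from control cells (vertical axis, log2 scale) for each gene and treatment, as deposited (left) and with the totals of all cells set equal (right), with the median of all 9664 genes as a black bar and 1.5-fold as dotted lines. FOS at 16 h in paclitaxel lies at −3.15 and −2.83, and FOS at 16 h in celecoxib moves from −0.58 to 0.64.

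The members were then compared with each other across the cells of a condition. Spearman's rho was taken at the same total per cell for the 21 pairs and is given without a p, since the cells of a condition are no separate samples and share a depth distribution and the normalisation to a spike-in. The median over pairs was 0.40 in control cells, against 0.01 over all pairs of genes, and 15 of 21 pairs were over 0.3, as were 3.13% of all pairs. After 16 h in paclitaxel the median was −0.04 and 2 pairs were over 0.3 (2% of all pairs). At 48 h in paclitaxel the median was 0.29 with 10 pairs over 0.3 (2.28%), and at 2 h in celecoxib 0.21 with 3 pairs (1.48%). At 16 h in celecoxib it was 0.09 and in both drugs 0.14, each with 1 pair over 0.3 (1.42% and 1.65% of all pairs). The members thus moved together most in control cells and at 48 h in paclitaxel, and least at 16 h in paclitaxel. Of the 56 cells at 16 h in paclitaxel, 32 were at 0 for FOS, 31 for JUNB, 44 for EGR1 and 41 for IER3. For DUSP1 29 were at 0, for IER2 25 and for JUND 8. The part of such tied values in the lower rho was not tested. All 6 control pairs under 0.3 were those of IER3, which reached 0.3 with no other member in any condition.

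Cell depth, which all genes of a cell share, was set beside these values. In control cells the members correlated with the number of genes detected at rho of 0.12 (IER3) to 0.42 (JUND), while after 16 h in paclitaxel these values lay between −0.11 and 0.12. They ran from 0.02 to 0.46 at 48 h in paclitaxel, and had both signs at 2 h in celecoxib (−0.14 to 0.24), at 16 h in celecoxib (−0.28 to 0.27) and in both drugs (−0.23 to 0.17). With the number of genes detected held fixed, the median over pairs was 0.36 in control cells, 0.26 at 48 h in paclitaxel and −0.04 at 16 h in paclitaxel, close to the values without it.

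**Figure D4:**
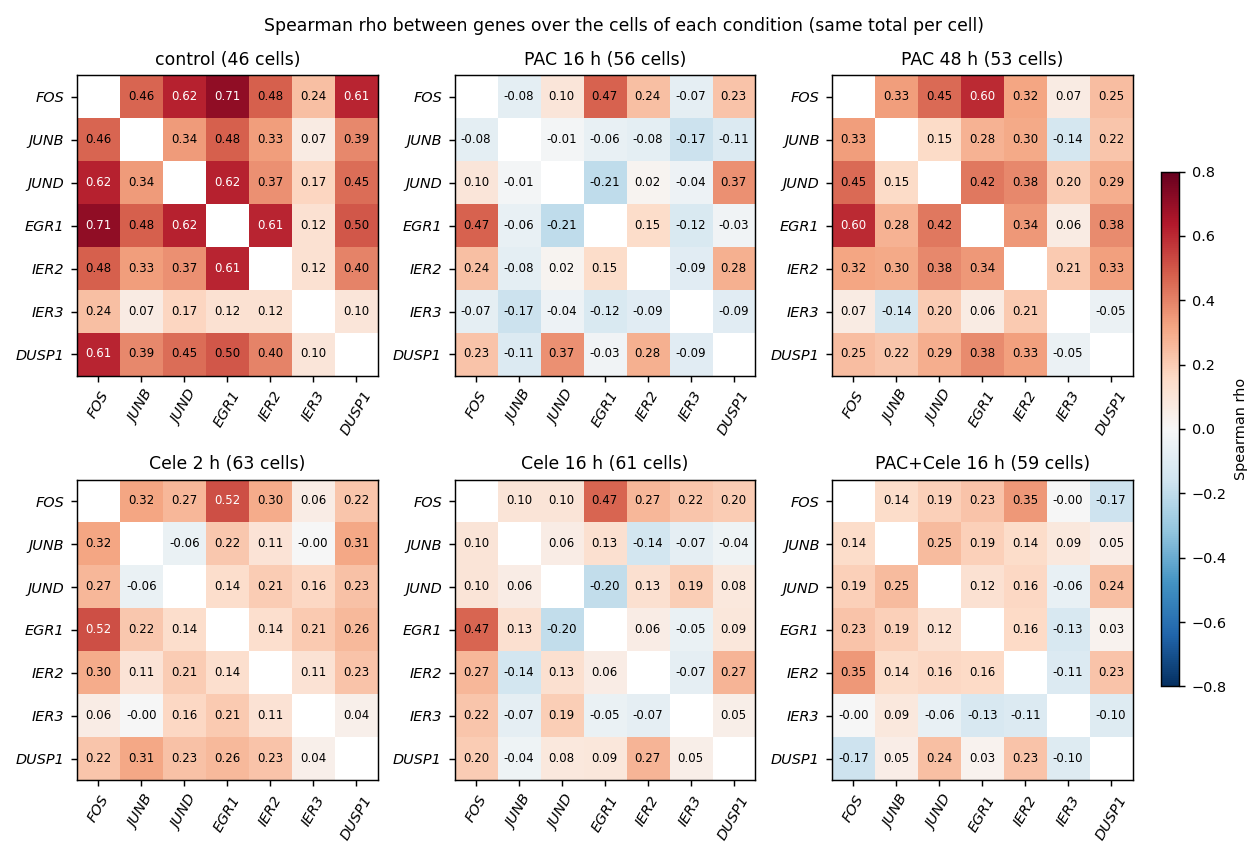
Spearman's rho (colour, −0.8 to 0.8) between the 7 genes over the cells of each condition at the same total per cell. In control cells all pairs without IER3 lie over 0.3, and after 16 h in paclitaxel FOS with EGR1 (0.47) and JUND with DUSP1 (0.37) remain over it.

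FOS with EGR1, whose promoters are printed above, was the pair with the highest rho in 5 of the 6 conditions. Its rho was 0.71 in control cells, 0.47 at 16 h and 0.60 at 48 h in paclitaxel, 0.52 at 2 h and 0.47 at 16 h in celecoxib, and 0.23 in both drugs, where FOS with IER2 (0.35), JUNB with JUND (0.25) and JUND with DUSP1 (0.24) stood above it. In control cells EGR1 was the gene of rank 2 by its rho with FOS among 8739 genes, and FOS was of rank 1 for EGR1. Most cells with EGR1 also held FOS, which was itself present in most cells of every condition other than 16 h in paclitaxel. Of the 27 control cells with EGR1, 26 held FOS, and 11 cells held FOS without EGR1, while FOS was seen in 80.4% of all control cells. At 48 h in paclitaxel and at 2 h and 16 h in celecoxib, 0 cells held EGR1 without FOS, out of 30, 23 and 37 cells with EGR1, and FOS was seen in 83%, 81% and 96.7% of all cells there. After 16 h in paclitaxel 10 of 12 such cells held FOS (42.9% of all cells), and in both drugs 12 of 15 did (71.2%). The overlap was not particular to FOS, since JUND was seen in 27 of 27 control cells with EGR1, in 30 of 30 at 48 h in paclitaxel, in 22 of 23 at 2 h and 35 of 37 at 16 h in celecoxib, in 10 of 12 at 16 h in paclitaxel and in 13 of 15 in both drugs. JUND was seen in 84.8 to 96.2% of all cells of a condition.

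**Figure D5:**
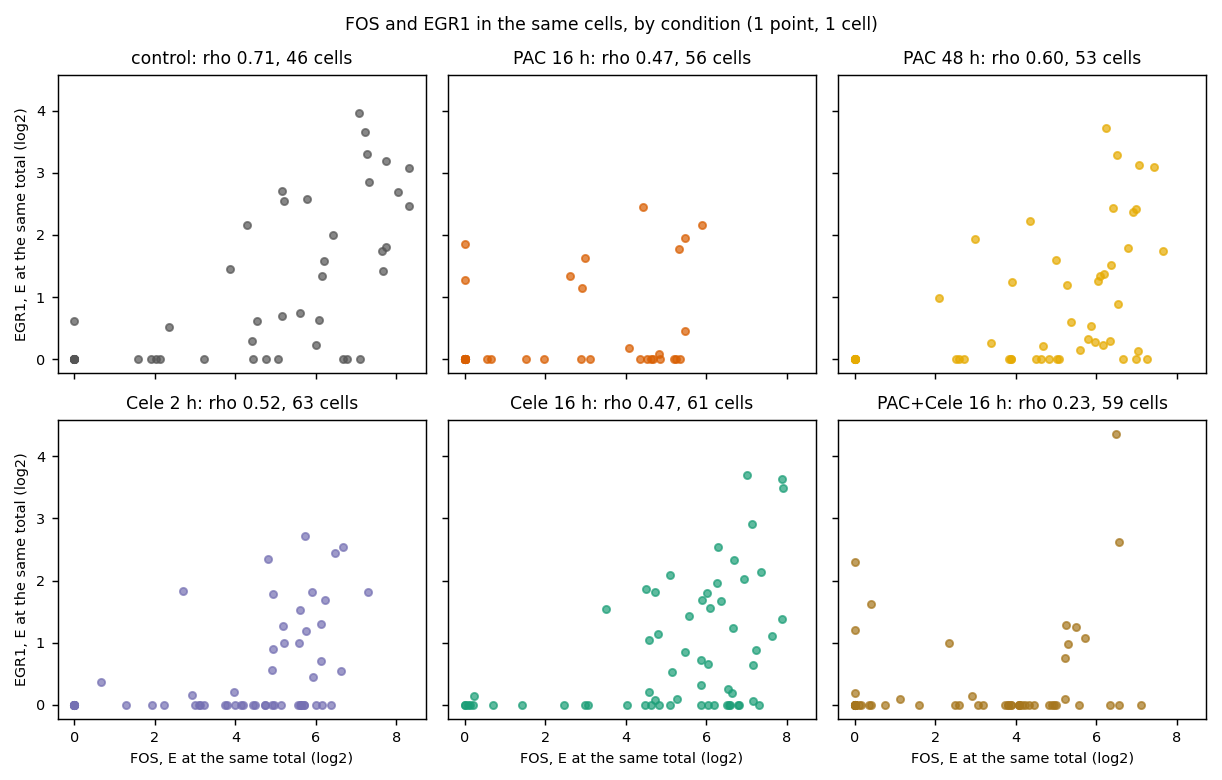
EGR1 against FOS in single cells at the same total per cell (both axes E, log2 scale), 1 panel per condition with its rho and number of cells. Most points fill the lower right triangle, and rho runs from 0.71 in control cells to 0.23 in both drugs. EGR1 is above 0 without FOS in 1 control cell, 2 cells at 16 h in paclitaxel, 3 in both drugs and 0 elsewhere.

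Other pairs depended on the condition. JUND with EGR1 stood at 0.62 in control cells and 0.42 at 48 h in paclitaxel, and at −0.21 at 16 h in paclitaxel and −0.20 at 16 h in celecoxib. At 16 h in paclitaxel EGR1 was above 0 in only 12 of 56 cells. FOS with JUND ran from 0.62 in control cells to 0.10 at 16 h in paclitaxel, and EGR1 with IER2 from 0.61 to 0.06 at 16 h in celecoxib. FOS with DUSP1 ran from 0.61 in control cells, where FOS was the gene of rank 1 for DUSP1, to −0.17 in both drugs. IER2 with DUSP1 and FOS with IER2 were above 0 in all 6 conditions, between 0.23 and 0.40 and between 0.24 and 0.48. So were FOS with EGR1, FOS with JUND, EGR1 with IER2, JUND with DUSP1 (0.08 to 0.45) and JUND with IER2 (0.02 to 0.38). The highest value of 16 of the 21 pairs was in control cells.

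Beyond the members, the genes most like each were taken by the mean over 6 conditions of rho within the condition, among 7566 genes seen in at least 30% of the cells of each. For FOS these were KLF6, an immediate early zinc finger factor (0.35), and HES1, a repressor downstream of Notch (0.31). For EGR1 they were CCNL1, a cyclin of RNA processing (0.31), and HES1 (0.27). These means did not hold in every condition. From control cells to 16 h in paclitaxel HES1 went from 0.63 to −0.13 with FOS and from 0.62 to −0.05 with EGR1. CCNL1 stood at −0.05 with EGR1 at 2 h in celecoxib, while KLF6 with FOS stayed between 0.17 and 0.49. JUND was most like SSBP4 (0.33) and RHOBTB3 (0.28), DUSP1 most like MGAT4C (0.34) and SESN3 (0.30), IER2 most like TRA2B (0.25) and HOXB2 (0.24), and IER3 most like MGAT2 and SOAT1 (0.20 each). SRSF6, a splicing factor, had a mean rho of 0.22 with JUNB. The 99th percentile over these genes lay between 0.14 and 0.18. EGR1 itself, seen in 21.4% and 25.4% of the cells of 2 conditions, was outside this filter, and its mean rho with FOS was 0.50.

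The wider pathway was read from lists chosen by textbook role, each set beside all 9664 genes. At 16 h in paclitaxel 37.3% of all genes were past 1.5-fold lower as deposited, with a median of −0.41, and 13.2% at the same total, with a median of −0.09. Of 20 other immediate early transcription factors 13 had values. At 16 h in paclitaxel 6 of them (46.2%) were past 1.5-fold lower and 0 higher, and 2 (15.4%) and 0 at the same total. The list's median was −0.41 as deposited, equal to that of all genes, and −0.36 at the same total. KLF6 differed by −1.54, the dimerisation inhibitor ID2 by −1.17, HES1 by −1.12 and ID1 by −0.97, and at the same total KLF6 and HES1 stayed past the limit at −1.28 and −0.70. FOSB, the nearest relative of FOS and named here after its values were seen, had a rho of 0.80 with FOS in control cells, 0.61 at 48 h and 0.39 at 16 h in paclitaxel, 0.39 at 2 h and 0.27 at 16 h in celecoxib, and 0.48 in both drugs. Like EGR1 it was outside the filter of the likeness ranking, being seen in 26.8% of cells at 16 h in paclitaxel and 25.4% in both drugs. Its mean E was 0.87 in control cells and 0.19 at 16 h in paclitaxel.

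Among 32 effectors and feedback inhibitors 23 had values, and 10 (43.5%) were past the limit lower at 16 h in paclitaxel, with 5 (21.7%) at the same total and 0 higher on either scale. The median was −0.50 as deposited and −0.19 at the same total, against −0.41 and −0.09 for all genes. DUSP14, another MAP kinase phosphatase, differed by −1.57, GADD45B, a stress sensor, by −1.37, PPP1R15A, which ends the integrated stress response, by −1.32 and the ERK inhibitor SPRY2 by −0.95. With totals set equal DUSP14 (−1.20), GADD45B (−1.17) and PPP1R15A (−1.26) stayed past it and SPRY2 (−0.49) did not. PPP1R15A was seen in 12.5% of these cells and had a rho of 0.65 with FOS in control cells. By 48 h in paclitaxel DUSP6, an ERK phosphatase, was 0.90 higher, and 1.21 higher at the same total.

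Of 11 genes known as AP-1 targets 6 had values, and 5 were past the limit lower at 16 h in paclitaxel (37.3% of all genes) and 4 at the same total (13.2%). The median was −1.09 against −0.41 for all genes, and −0.66 against −0.09 at the same total, over 6 genes only. VIM, an intermediate filament, differed by −1.49, HMGA1, a chromatin protein, by −1.38, TIMP1, a protease inhibitor, by −1.26 and CCND1, a cyclin of early cell cycle, by −0.91. With totals set equal VIM (−0.96), HMGA1 (−0.63) and TIMP1 (−1.07) stayed past it and CCND1 (−0.32) did not. After 48 h 2 of the 6 were past the limit lower as deposited (26.6% of all genes) and 0 with totals set equal (8.07%).

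Of 28 MAP kinase pathway and serum response genes 25 had values, and at 16 h in paclitaxel 9 (36%) were past the limit lower and 0 higher, close to the 37.3% of all genes. At the same total 6 (24%, against 13.2% of all genes) were lower and 1 higher, and the medians of −0.35 and −0.07 lay slightly above those of all genes. HRAS differed by −1.49, CREB1, which binds the CRE, by −1.20 and the kinase ARAF by −1.02. The 1 gene called higher at the same total was MAP2K6, a p38 kinase kinase, at 1.01. HRAS was past the limit lower on both scales in both drugs too (−1.05 and −1.45). Among 16 of 20 other bZIP partners of FOS and JUN with values, 7 (43.8%) were past the limit lower at 16 h in paclitaxel and 3 (18.8%) at the same total, led by CREB1 and ATF1 (−0.95). The median of that list was −0.55, and −0.28 at the same total. Members of it also lay past the limit higher, 5 at 2 h and 6 at 16 h in celecoxib at the same total (4.18% and 8.87% of all genes), and 7 in both drugs as deposited (30.4%), with 2 at the same total (7.86%).

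The genes of the integrated stress response, the pathway that includes ATF3, were mostly higher in the celecoxib conditions. Of the 10 with values, 6 were past the limit higher at 2 h in celecoxib, 7 at 16 h in celecoxib and 8 in both drugs, where 1.12%, 0.383% and 30.4% of all genes were. In each of these conditions 1 was past the limit lower, PPP1R15A, at −0.67, −0.62 and −0.60. At the same total 9, 8 and 6 were higher (4.18%, 8.87% and 7.86% of all genes) and 0, 0 and 1 lower. At 48 h in paclitaxel 3 were higher as deposited and 4 at the same total (0.921% and 4.69% of all genes). In both drugs asparagine synthetase ASNS differed by 3.11, the mTOR inhibitor DDIT4 by 2.98, TRIB3 by 2.00 and CHAC1 by 1.99, and by 2.49, 2.45, 1.64 and 1.65 at the same total. In control cells the mean level of this list had a rho of 0.43 to 0.65 with the members other than IER3 (0.12). In the treated conditions these values lay between −0.11 and 0.33 for those members.

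Other lists were counted in the same conditions, where 37.3%, 26.6%, 25.7% and 43.9% of all genes were lower as deposited, and 13.2%, 8.07%, 10.8% and 10.1% with totals set equal. Of 12 heat shock genes 10 were past the limit lower at 16 h in paclitaxel and 8 at 48 h, 9 at 2 h and 10 at 16 h in celecoxib, and of 12 mitotic genes 9, 12, 12 and 12, with 9 lower in both drugs, where 3 heat shock genes were higher (1.76% of all genes were lower there and 30.4% higher). With totals set equal the heat shock counts were 6, 5, 5 and 5, with 4 lower and 1 higher in both drugs, and the mitotic counts 7, 11, 8 and 11, with 11 lower in both drugs. The mitotic genes at 48 h in paclitaxel thus had a median of −1.88 while FOS stood at −0.58. The part of cell cycle or stress state in the levels of the members was not tested.

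The deposited table gives each cell a transcriptional state, which the study predicted from the expression of many genes, so values by state are a description. At 16 h in paclitaxel FOS was seen in 43.5% of the 23 cells called control-like and in 45.2% of the 31 called suppressive, and its mean E was 1.31 and 1.39. At 48 h in paclitaxel it was seen in 75% of 28 control-like and 92% of 25 suppressive cells, and at 2 h in celecoxib in 73.1% of 26 and 84.8% of 33. EGR1 at 2 h in celecoxib went the other way, with 50% of control-like and 24.2% of suppressive cells. The median log2 of the summed N of suppressive cells, set against control cells, was −1.33 at 16 h in paclitaxel, and that of control-like cells −0.46. The intervals for the share with FOS there, 23.2 to 65.5% in control-like and 27.3 to 64% in suppressive cells, overlapped nearly throughout.

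The cells were checked against markers of their type. KRT18, an epithelial keratin, was seen in 23.9 to 36.5% of the cells of a condition and VIM in 62.5 to 86.8%, while the epithelial and ovarian markers PAX8, EPCAM, KRT8 and WT1 were not analysed here. Of markers of other cell types COL1A2 was seen in 10.7 to 32.8% of cells, least at 16 h in paclitaxel, and LYZ in 37 to 60.7% with a mean E of at most 0.24, and their part in the results was not tested. COL1A1, DCN, PTPRC, CD3E, PECAM1, VWF and HBB were not analysed here. No pair of cells had identical values.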

How the data were processed

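Single A2780 cells were captured by condition and sequenced with Smart-seq2. Per the labels and the study's methods, the authors trimmed reads with Trim Galore, quantified them with RSEM 1.3.0 and Bowtie2 on hg38 (GENCODE 28) plus 3 spike-in RNAs, divided TPM by the highest spike-in, and deposited the result as log2(N/10 + 1) with 3 decimals. Cells with weak housekeeping genes, and genes seen in no more than 30% of cells of every condition, had been removed. Neither counts nor reads per cell were used here, so no count model, thinning or doublet caller was run.

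Columns were matched to samples by their running number. Members were found by symbol. With 1 sample per condition no test was made: means, SD over cells, exact Clopper-Pearson 95% intervals, differences past log2 of 1.5 and Spearman's rho were computed (Python 3.11.15, numpy 2.4.6, scipy 1.17.1) on the deposited values and after rescaling each cell to the median total of control cells. The code was tested on simulated data. A difference of E understates the fold of genes with low values. Named genes were the members, up to 4 genes per list with the largest difference past the limit, and for each member the 2 most alike. A gene that this rule named in 1 list and another in 1 likeness ranking are not reported here. The members and lists were chosen with earlier results of these data known. Alternatives tried were other scales, pseudocounts, limits, depth windows, index blocks and wells. Coordinates came from GENCODE 44 on hg38 and promoters from RefSeq.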

Additional observations from a re-analysis of the deposited data

How the results depend on the processing

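No paired analysis was possible because the numbers in the labels run through the whole series and no number recurs between conditions. Leaving out a replicate was not possible either, with 1 sample per condition. Counts of members past 1.5-fold at 16 h in paclitaxel stayed within 1.5 times under all alternatives tried. At the same total per cell, 1 member was higher at 48 h in paclitaxel, 3 were lower at 2 h in celecoxib, and 2 were higher and 0 lower at 16 h in celecoxib, where IER2 and DUSP1 turned to 0.37 and 0.0044. With cells of 5500 to 7000 detected genes as well, an alternative chosen after seeing the data, these counts were 1, 1, 2 and 0, with IER2 at 0.51 and DUSP1 at 0.13. That depth window alone gave 0 lower at 16 h in celecoxib. From ratios of linear means 4 were lower at 48 h in paclitaxel, 6 lower at 16 h in celecoxib and 1 higher in both drugs, and with a pseudocount of 1 there were 3 lower at 48 h in paclitaxel and 1 higher in both drugs. A 2-fold limit left 1 lower at 2 h in celecoxib, 0 at 16 h in celecoxib and 1 in both drugs, and keeping only members seen in at least 30% of cells also left 1 in both drugs. Block 2 alone gave 2 lower at 48 h in paclitaxel, and block 1 alone 1 higher in both drugs. With E above 1 as detection, members seen in over 50% of cells numbered 0 at 16 h in paclitaxel, 3 at 48 h and 3 at 2 h in celecoxib, and 26 of 154 recomputed shares, all lower, left their interval. Of 238 recomputed differences, 4 that had been past the limit changed sign, those of IER2 and DUSP1 above. Differences that had been inside the limit were left out of that count. Some of these changed sign too, such as FOS (−0.58 to 0.64) and JUND (−0.20 to 0.71) at 16 h in celecoxib at the same total.

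All 40 alternatives of the median rho moved it by less than the spread over pairs, although with members seen in at least 30% of cells it was 0.06 at 16 h in paclitaxel, with 1 pair over 0.3. Pairs over 0.3 numbered 5 at 2 h in celecoxib within the depth window, and in both drugs 3 within it, 3 by Pearson's r, 2 without the debris well, 3 in block 1 and 4 in block 3. Depth per cell is unknown, so a transcript at 0 may be one that was not captured. The causes of these shifts were not tested.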
